A study of Mus musculus with 4 samples.

Results

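Type VI collagen, the fibril-associated collagens and the multiplexins were examined in dermal white adipose tissue (dWAT), the fat layer of mouse skin around the lower ends of hair follicles (HFs). The genes were a fixed list of 9, found by symbol among the 22913 genes of each library. They are Col6a1, Col6a2, Col6a3 and Col6a6 of type VI, the fibril-associated Col12a1, Col14a1 and Col16a1, and the multiplexins Col15a1 and Col18a1. All 9 were found and had a value above 0 in each library. The list was chosen without a threshold on their values. The study itself picked collagen genes from the same libraries as lower in old anagen dWAT, Col6a6 among them. A lower value of that gene there is thus not independent evidence. Lower values of the other members come from the same libraries too, and add no independent evidence on collagen genes as a group.

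RNA sequencing gave 4 libraries of dWAT from C57BL/6 mice, 1 for each group. OTD is old and YTD young tissue in telogen, the resting phase of the HF, and OAD is old and YAD young tissue in anagen, the growth phase, which was brought on by depilation. Old mice were 18 months and young mice 2 months of age. The age field of the labels gives 18 months for YTD and 2 months for OAD, against the titles and the treatment text, which were followed. Tissue from many mice went into each group, but with 1 library per group there is no replicate, so no difference below has a p-value or a spread between animals. Anagen tissue was also depilated tissue, so hair cycle phase and depilation cannot be told apart.

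These collagens do not build the large banded fibrils of skin, but sit on, between or around them. Type VI chains of different kinds, alpha 1, alpha 2 and an alpha 3 or alpha 3-like chain such as that of Col6a6, wind into a monomer, and monomers join into beaded filaments that form a mesh around fat and muscle cells. Fibril-associated collagens have interrupted triple helices and attach to the surface of type I and type II fibrils. Multiplexins lie at basement membranes, and their C-terminal ends can be cut off, that of type XVIII as endostatin, an inhibitor of vessel growth.

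Levels are in FPKM, the fragments of a gene scaled by its listed length and by the fragments of the library. The listed length of each of these genes is that of its longest annotated coding sequence, with or without the stop codon, so levels of different genes can be set side by side only per coding length. Changes are differences between libraries on the log2(FPKM + 1) scale, where low genes appear to change less than they do, and a gene was counted as past the threshold at a change of at least 1 in size. The place where the lowest FPKM values gather, sought within a range fixed in advance, was assumed to stand for 1 fragment. This puts the depth roughly at 17600000 to 24200000 fragments per library. At that depth the member values stood for about 29.5 to 3400 fragments, and for at least 294 outside Col6a6. Fold changes carry 95% intervals from these fragment numbers (exact binomial), which are rough and cover counting error only. Mitochondrially encoded genes took 52.7% (OTD), 44.7% (YTD), 18.3% (OAD) and 14.4% (YAD) of all FPKM, and 15 skeletal muscle markers held 5.66%, 9.01%, 2.06% and 1.82% in the same order. These shares differ between the phases, and their part in the results was not tested. Among genes reaching an FPKM of 1 as deposited, 2829 were higher and 2938 lower by at least 1 in YAD than YTD, but 5787 and 1274 after rescaling to TPM, in which each library sums to the same total.

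Within each library the collagen genes can be compared without any scaling between libraries. The 9 genes together made up 17.2% of the summed FPKM of all 44 collagen genes in OTD and likewise 17.2% in YTD, against 37.9% in OAD and 27.6% in YAD. Their share of the collagens was therefore larger in both anagen libraries, and largest in OAD. Their summed FPKM as deposited was 122 in OTD and 132 in YTD, against 100 in OAD and 137 in YAD. The largest share thus went with the lowest sum. Of all FPKM in a library they held 0.00975%, 0.0106%, 0.0123% and 0.0198% in the same order, so the order of the sums depends on the scaling. In telogen Col6a1 was highest of the 9 in OTD and Col15a1 in YTD, and in both anagen libraries Col18a1 was highest. Col6a6 was lowest in all 4 libraries.

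**Figure D1:**
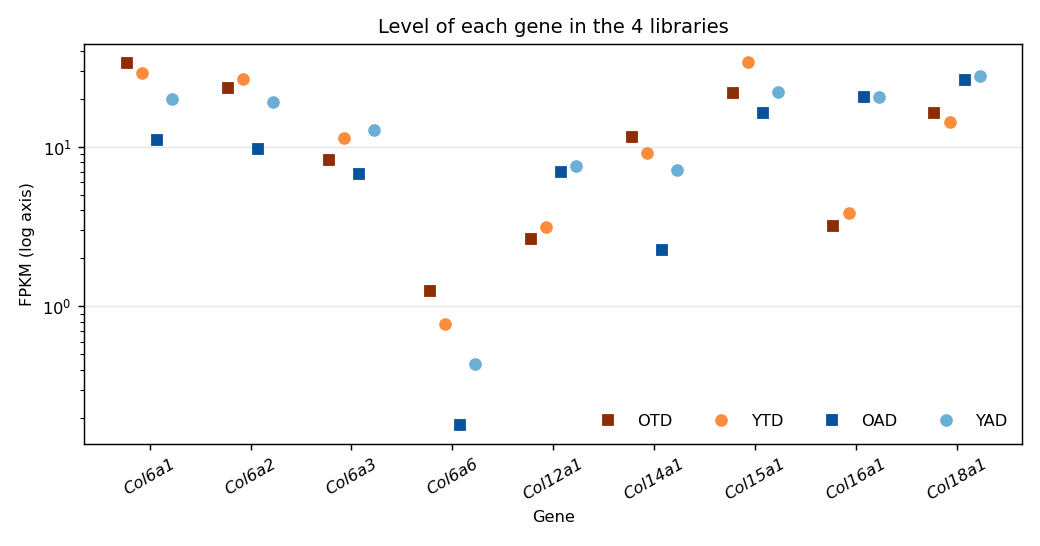
FPKM of each of the 9 collagen genes on a log axis, 1 point per library, squares for old and circles for young, brown and orange for telogen, dark and light blue for anagen. Col16a1 and Col12a1 are higher in both anagen libraries, while Col14a1, Col6a1 and Col6a2 have their lowest point in OAD.

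Col6a1 and Col6a2 encode the alpha 1 and alpha 2 chains of the type VI monomer and lie next to each other on chromosome 10 of GRCm38. Col6a2 (ENSMUSG00000020241) spans 76595762 to 76623630 and Col6a1 (ENSMUSG00000001119) 76708792 to 76726168, both on the minus strand, with 85161 bases and no protein-coding gene between them. Col18a1 (ENSMUSG00000001435, 77052178 to 77166548) follows on the same strand after 326009 bases. Col6a3 (ENSMUSG00000048126), which encodes the large alpha 3 chain, is on chromosome 1 from 90765923 to 90843971. The sequences before the starts of the 3 chain genes are shown because the genes of this 1 monomer had like differences with age in anagen, and those of Col15a1 and Col18a1 because the multiplexins differed from each other between telogen and anagen. They are RefSeq promoter sequences of GRCm38.p6, 5′ to 3′ on the strand of the gene, without bases that lie in an annotated exon. Capitals mark GGGCGG or CCAAT on either strand.
Col6a1 (chr10:76726169-76726294, minus strand): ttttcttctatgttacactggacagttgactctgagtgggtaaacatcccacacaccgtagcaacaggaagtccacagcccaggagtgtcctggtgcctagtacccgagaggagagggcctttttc
Col6a2 (chr10:76623631-76623880, minus strand): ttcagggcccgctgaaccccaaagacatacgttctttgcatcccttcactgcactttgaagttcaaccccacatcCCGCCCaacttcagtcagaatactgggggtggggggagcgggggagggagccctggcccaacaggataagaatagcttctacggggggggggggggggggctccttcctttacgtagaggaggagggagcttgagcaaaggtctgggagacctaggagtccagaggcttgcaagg
Col6a3 (chr1:90843972-90844221, minus strand): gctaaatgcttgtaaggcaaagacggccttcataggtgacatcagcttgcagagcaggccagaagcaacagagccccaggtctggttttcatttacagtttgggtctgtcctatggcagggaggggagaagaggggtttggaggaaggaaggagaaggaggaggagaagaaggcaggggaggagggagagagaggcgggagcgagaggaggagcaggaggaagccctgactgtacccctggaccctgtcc
Col15a1 (chr4:47207762-47208011, plus strand): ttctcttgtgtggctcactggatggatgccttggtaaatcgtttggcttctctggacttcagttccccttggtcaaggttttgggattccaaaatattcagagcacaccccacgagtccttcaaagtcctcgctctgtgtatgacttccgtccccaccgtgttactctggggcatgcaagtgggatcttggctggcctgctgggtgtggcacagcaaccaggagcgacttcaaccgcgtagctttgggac
Col18a1 (chr10:77166549-77166780, minus strand): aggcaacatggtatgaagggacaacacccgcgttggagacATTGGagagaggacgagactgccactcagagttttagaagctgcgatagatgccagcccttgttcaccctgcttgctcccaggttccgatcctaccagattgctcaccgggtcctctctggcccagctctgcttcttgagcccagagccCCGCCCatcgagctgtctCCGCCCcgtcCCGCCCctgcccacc

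In the 250 bases before the start, GGGCGG occurred on either strand in 32.7% of 32851 RefSeq promoters, CCAAT in 33.8%, TATAAA in 12.4% and TGANTCA, a motif of AP-1 factors, in 6.75%. Col6a2 had 1 GGGCGG at the start shown and 3 at its other start. Col18a1 had 3 GGGCGG and 1 CCAAT at the start shown and neither at its inner start. Col6a3 and Col15a1 held none of the 4 motifs in this window, and Col6a1 held 1 TGANTCA, in the stretch that is annotated as exon and not shown. The 3 chain genes thus shared no motif of the 4 in this window. Among members whose sequences are not shown, Col6a6 had 2 GGGCGG, and Col16a1 had 1 GGGCGG and 1 CCAAT. Promoter sequences of Col12a1 and Col14a1 were not used here.

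Col6a1 stood at 33.7 FPKM in OTD and 28.8 in YTD, against 11.1 in OAD and 19.9 in YAD. Col6a2 had 23.5 in OTD and 26.8 in YTD, against 9.65 in OAD and 19.2 in YAD. Col6a3 had 8.28 in OTD and 11.3 in YTD, against 6.77 in OAD and 12.8 in YAD. For all 3 chains of the monomer OAD was the lowest library. Col6a1 was 1.79-fold lower in OAD than YAD (1.64 to 1.97), Col6a2 1.99-fold lower (1.81 to 2.19) and Col6a3 1.883-fold lower (1.77 to 2.01), so the 3 chains differed with age in anagen by nearly the same factor. Their log2 changes were -0.79, -0.92 and -0.82, short of the threshold as deposited. In TPM all 3 passed it, at -1.02, -1.16 and -1.06, and in TPM without mitochondrially encoded and muscle genes Col6a1 missed it at -0.96. The median of all genes reaching an FPKM of 1 was itself at -0.21 in TPM. Minus that median the 3 chains were at -0.81, -0.95 and -0.85, close to their changes as deposited. This closeness follows from the method, as TPM multiplies a whole library by a constant and that median moves with it.

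In telogen the 3 chains did not share a direction. Col6a1 was 1.17-fold higher in OTD than YTD (1.09 to 1.25), while Col6a2 was 1.14-fold lower (1.06 to 1.23) and Col6a3 1.36-fold lower (1.28 to 1.46). The summed FPKM of the 3 chains was 65.4 in OTD and 66.9 in YTD, against 27.5 in OAD and 51.8 in YAD. The telogen libraries were thus close in the sum, and the anagen libraries far apart. From telogen to anagen, Col6a1 changed by -1.52 in old and -0.52 in young dWAT, and Col6a2 by -1.20 and -0.46. In old dWAT both stayed below 0 under each of the 5 scalings, and in young dWAT they were 0.30 and 0.35 in TPM, 0.49 and 0.55 in TPM without hair and melanocyte genes, and -0.54 and -0.48 in TPM without mitochondrially encoded and muscle genes.

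The transcripts of the 3 chains were set against each other per coding length, by ratios of FPKM within a library. Col6a2 stood to Col6a1 at 0.697 in OTD and 0.929 in YTD, against 0.871 in OAD and 0.966 in YAD. Col6a3 stood to Col6a1 at 0.246 in OTD and 0.391 in YTD, against 0.611 in OAD and 0.642 in YAD. The alpha 3 transcript was thus nearer to the alpha 1 transcript in both anagen libraries, and OTD had the lowest value of both ratios. For Col6a3, 5 protein-coding transcripts are annotated and the listed length is that of the longest, so the absolute ratio depends on which of them were present.

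Col6a6 (ENSMUSG00000043719, chromosome 9 from 105687809 to 105828160) encodes an alpha 3-like chain. It stood at 1.25 FPKM in OTD and 0.773 in YTD, against 0.179 in OAD and 0.436 in YAD. As deposited, telogen libraries were higher than anagen libraries at either age. From telogen to anagen, the log2 change in old dWAT stayed between -1.42 and -0.67 over the 5 scalings. In young dWAT it was 0.0077 in TPM and 0.090 in TPM without hair and melanocyte genes. Col6a6 was 1.62-fold higher in OTD than YTD (1.26 to 2.11) and 2.43-fold lower in OAD than YAD (1.54 to 4.03). The wide intervals reflect its few fragments. Relative to Col6a3 in the same library it stood at 0.151 in OTD and 0.0685 in YTD, against 0.0265 in OAD and 0.0342 in YAD. It was a minor transcript beside Col6a3 in all 4 libraries.

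Among the fibril-associated collagens, Col14a1 and Col16a1 went in opposite directions from telogen to anagen as deposited. In old dWAT this held under each of the 5 scalings. In young dWAT it did not, as Col14a1 was at 0.44 in TPM and 0.63 in TPM without hair and melanocyte genes. Col14a1 (ENSMUSG00000022371, chromosome 15 from 55307750 to 55520803) encodes type XIV collagen, which binds fibrils and the small proteoglycan decorin. Its FPKM was 11.4 in OTD and 9.12 in YTD, against 2.25 in OAD and 7.14 in YAD. OAD stood far below the other libraries, 3.17-fold below YAD (2.76 to 3.65) and 5.09-fold below OTD (4.47 to 5.79). It was the 1 gene of the 9 past the threshold between OAD and YAD as deposited, with a log2 change of -1.33. Over all genes with a value above 0, 1.18% passed the threshold in either direction in anagen and 0.454% were lower by at least 1. In telogen Col14a1 was 1.26-fold higher in OTD (1.15 to 1.37).

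Col16a1 (ENSMUSG00000040690, chromosome 4 from 130047840 to 130099277) encodes type XVI collagen, which occurs near fibrillin microfibrils and the dermal-epidermal junction. Its FPKM was 3.20 in OTD and 3.87 in YTD, against 20.5 in OAD and 20.5 in YAD. The anagen libraries were both high and almost equal, with a log2 change with age of 0.0018 as deposited and -0.22 in TPM. It was 5.30-fold higher in YAD than YTD (4.71 to 5.96) and 6.40-fold higher in OAD than OTD (5.67 to 7.24). No other gene of the 9 was higher in anagen by as much at either age, with log2 changes of 2.14 and 2.35, and at least 2.14 and 2.19 over the 5 scalings. Of all genes with a value above 0, 16.1% were higher by at least 1 in young and 16.1% in old dWAT, so a change past the threshold was common in these comparisons.

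Col12a1 (ENSMUSG00000032332, chromosome 9 from 79598991 to 79718720) encodes type XII collagen, a fibril-associated chain found in tissues under tension. Its FPKM was 2.64 in OTD and 3.13 in YTD, against 6.94 in OAD and 7.59 in YAD. Both anagen libraries were above both telogen libraries, by 2.63-fold in old (2.38 to 2.92) and 2.42-fold in young dWAT (2.19 to 2.68). With age it was 1.19-fold lower in telogen (1.05 to 1.35) and 1.09-fold lower in anagen (1.01 to 1.18). Types XII and XIV are close relatives, and their ratio turned over between the phases. Col14a1 stood to Col12a1 at 4.34 in OTD and 2.91 in YTD, against 0.324 in OAD and 0.942 in YAD. With 4 protein-coding transcripts annotated for Col14a1 and 3 for Col12a1, the absolute ratio depends on which of them were present.

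**Figure D2:**
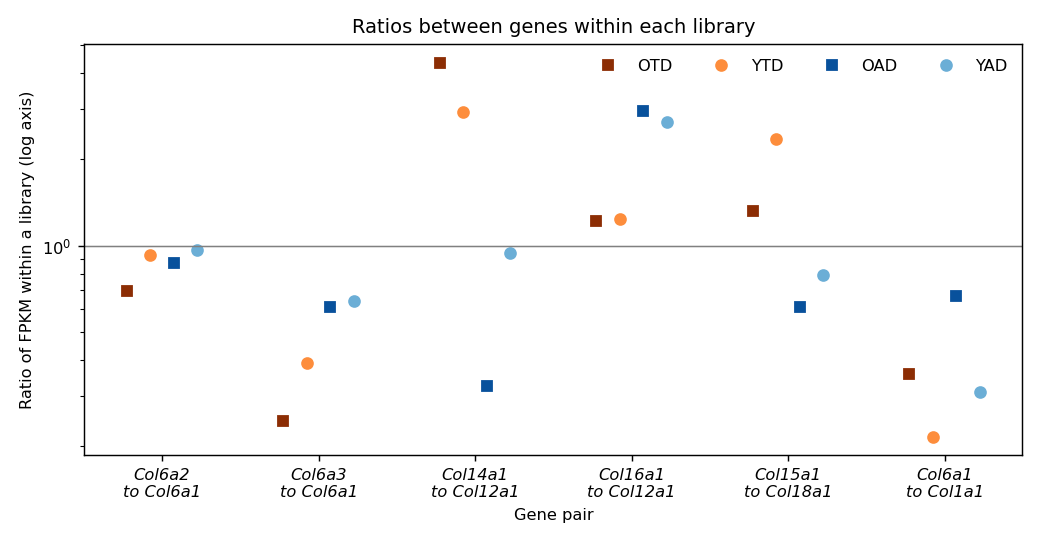
Ratio of the FPKM of 2 collagen genes within the same library, on a log axis with a line at 1, 1 point per library in the colours of the plot of levels. Scaling between libraries does not enter these ratios. Col14a1 to Col12a1 runs from 4.34 in OTD to 0.324 in OAD, and Col6a3 to Col6a1 is higher in both anagen libraries.

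The multiplexins Col15a1 and Col18a1 differed from each other in their pattern over the phases. Col15a1 (ENSMUSG00000028339, chromosome 4 from 47208161 to 47313167) encodes type XV collagen, a component of the outer side of basement membranes. Its FPKM was 21.6 in OTD and 34.0 in YTD, against 16.2 in OAD and 22.0 in YAD. It was lower in old dWAT in both phases, 1.57-fold in telogen (1.48 to 1.67) and 1.35-fold in anagen (1.26 to 1.45). Its telogen change was -0.63, and it stayed between -0.63 and -0.49 over the 5 scalings. As deposited no other of the 9 genes had as large a change in that phase on the log2(FPKM + 1) scale. By fold Col6a6 differed slightly more, 1.62-fold higher in OTD (1.26 to 2.11). In TPM without mitochondrially encoded and muscle genes Col6a6 was at 0.54 against -0.49 for Col15a1.

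Col18a1 encodes type XVIII collagen, a heparan sulfate proteoglycan of basement membranes. Its FPKM was 16.3 in OTD and 14.4 in YTD, against 26.4 in OAD and 27.8 in YAD. Both anagen libraries were higher than both telogen libraries, 1.93-fold in young (1.81 to 2.06) and 1.62-fold in old dWAT (1.53 to 1.72). OAD and YAD were close, YAD being 1.05-fold higher (0.9998 to 1.11). Col15a1 stood to Col18a1 at 1.33 in OTD and 2.36 in YTD, against 0.614 in OAD and 0.790 in YAD. Per listed coding length the Col15a1 transcript was thus above that of Col18a1 in telogen and below it in anagen. For Col15a1 6 and for Col18a1 5 protein-coding transcripts are annotated, so the absolute ratio depends on which of them were present. Slc19a1, a folate transporter gene on the opposite strand, overlaps the end of Col18a1, and its FPKM was 4.81 in OTD and 4.84 in YTD, against 9.21 in OAD and 10.02 in YAD. Whether the counting used strand is not given in the sources used here, so reads from the overlap cannot be assigned. Of the other members, Col6a3, Col6a6, Col12a1, Col14a1 and Col15a1 also overlap annotated genes, none of which is listed with a value.

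Across the 9 genes, the log2 change with age had a median of -0.18 in telogen and -0.42 in anagen. In telogen OTD was higher for 4 of them and lower for 5, where 45.8% of all genes with a value above 0 were higher and 54.1% lower. In anagen OAD was higher for 1 and lower for 8, where 50% of all genes were higher and 49.9% lower. The gene that was not lower in OAD was Col16a1, at 0.0018, and it too was lower in TPM. The median over all these genes was -0.029 in telogen and 0 in anagen. None of the 9 passed the threshold in telogen, where 3.6% of all genes and 4.78% of those reaching an FPKM of 1 did. Taken minus the median of all genes reaching an FPKM of 1, the member median was -0.12 in telogen and -0.41 in anagen as deposited. It lay between -0.43 and -0.41 in anagen over the 5 scalings. Each scaling multiplies a whole library by a constant. Taking off this median largely removes that constant, so the narrow range follows from the method. Without taking it off, the anagen member median was -0.84 with a pseudocount of 0.1 and -0.60 when an FPKM of 1 was required. In anagen 1 of the 9 passed the threshold as deposited, where 1.18% of all genes and 1.59% of those reaching an FPKM of 1 did. In TPM 4 of the 9 passed it, Col6a1, Col6a2, Col6a3 and Col14a1, all lower, where 1.58% of all genes passed and 0.994% were lower by at least 1. Minus the median of all genes in TPM, only Col14a1 of these 4 stayed below -1, at -1.38.

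**Figure D3:**
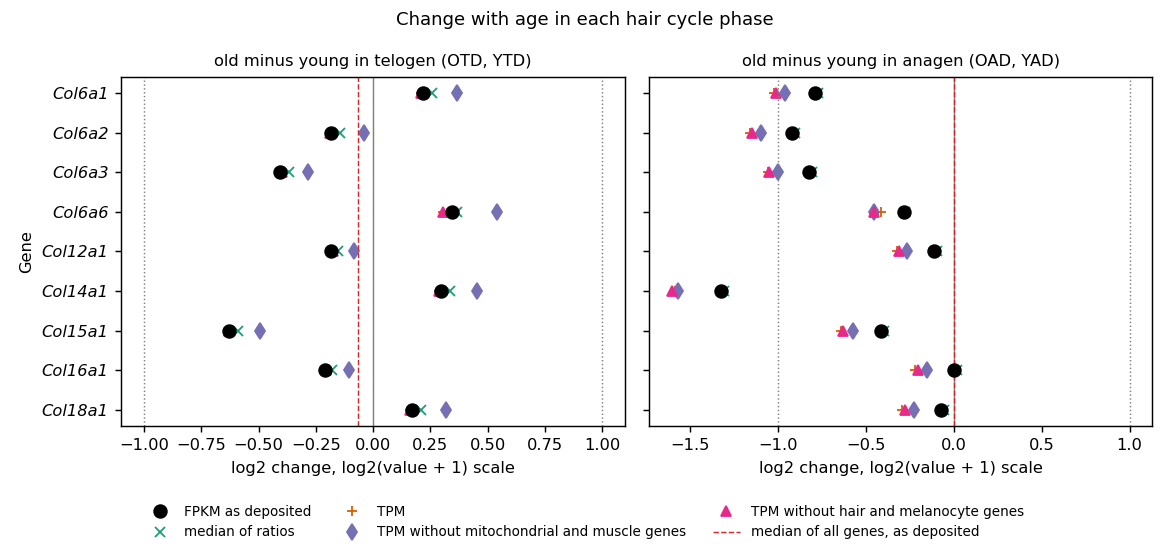
Log2 change of old minus young on the log2(value + 1) scale for each gene, in telogen on the left and anagen on the right, each panel with its own axis. Black points use FPKM as deposited, other symbols the rescaled values, the solid line marks 0, the dotted lines a change of 1 in size and the dashed line the median of all genes reaching an FPKM of 1. In anagen Col14a1 lies at -1.33 and the 3 type VI chains between -0.92 and -0.79.

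On the log2(FPKM + 1) scale the age change differed most between the phases for Col14a1, at 0.30 in telogen and -1.33 in anagen, a difference of -1.62. It was 0.22 and -0.79 for Col6a1, a difference of -1.01, and -0.18 and -0.92 for Col6a2, a difference of -0.74. For Col6a6 it was 0.34 and -0.28, a difference of -0.63, but this scale compresses its low values. With a pseudocount of 0.1 Col6a6 was at 0.63 and -0.94, further apart than Col6a1 at 0.22 and -0.84. Col14a1 was then at 0.32 and -1.62. For Col12a1 the age change on the log2(FPKM + 1) scale was -0.18 and -0.11, a difference of 0.071. These differences rest on 4 single libraries and were not tested.

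From telogen to anagen, 2 of the 9 genes passed the threshold in young dWAT, both higher in YAD (Col12a1 and Col16a1) and none lower, where 32.7% of all genes passed it and 16.7% were lower by at least 1. In old dWAT 5 passed, 2 higher (the same pair) and 3 lower (Col14a1, Col6a1 and Col6a2), where 31.7% of all genes passed and 15.6% were lower by at least 1. In young dWAT the share of the members past the threshold, 22.2%, was thus below that of all genes, and in old dWAT their share, 55.6%, was above it. Among genes reaching an FPKM of 1 in a library compared, 42% passed in young and 40.5% in old dWAT. In old dWAT all 9 members reached that level, and in young dWAT 8 did. With 9 members the gap in old dWAT rests on few genes and was not tested. Several of the calls in old dWAT depended on the scaling. In TPM Col6a1 was at -0.94 and Col6a2 at -0.62, so of the 9 genes Col14a1 was left lower by at least 1, and Col18a1, at 1.25, joined the 2 higher ones, where 27.8% of all genes were higher and 8.48% lower by at least 1. In TPM without hair and melanocyte genes Col6a1 was at -0.73 and Col6a2 at -0.42. In TPM without mitochondrially encoded and muscle genes Col12a1 missed the threshold at 0.95 and Col6a6 passed it at -1.42. Col6a6, the gene of the 9 with the largest fold between OTD and OAD (6.98, 4.78 to 10.9), also passed it at -2.27 with a pseudocount of 0.1. In TPM, signs of Col6a1, Col6a2, Col6a6, Col14a1 and Col15a1 in young and of Col6a3 and Col15a1 in old dWAT turned from lower to higher. Taken minus the median of all genes reaching an FPKM of 1 under the same scaling, Col14a1 lay between -2.12 and -1.99 in old and -0.36 and -0.31 in young dWAT. Col16a1 lay between 2.30 and 2.43 in old and 2.11 and 2.21 in young dWAT. The narrowness of these ranges follows largely from taking off a median that moves with the scaling.

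**Figure D4:**
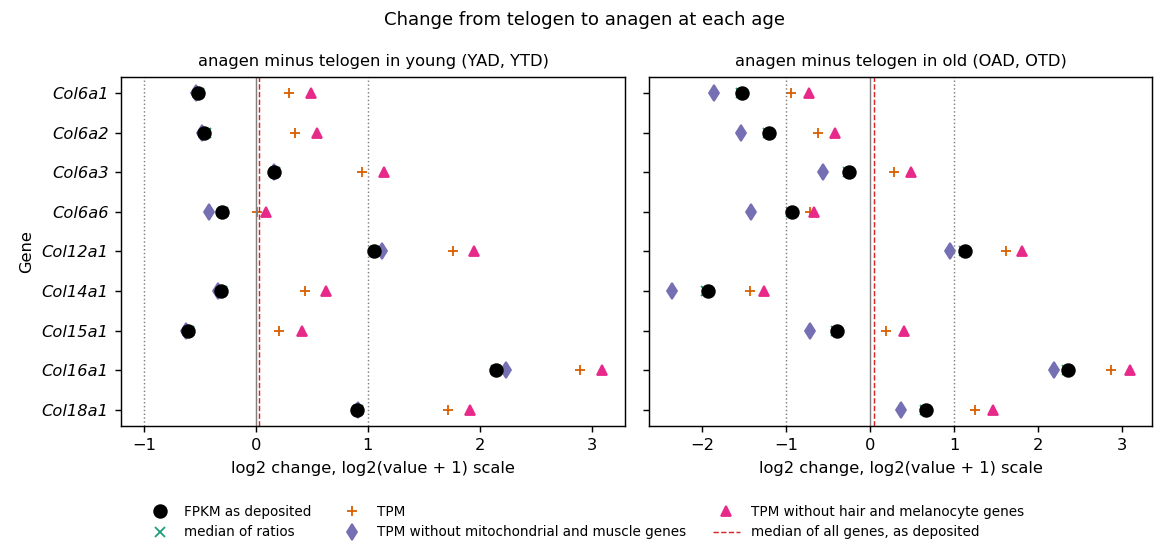
Log2 change of anagen minus telogen on the log2(value + 1) scale for each gene, in young dWAT on the left and old on the right, each panel with its own axis, with the symbols and lines of the plot of the change with age. Rescaling to TPM shifts nearly all genes to the right, and Col16a1 and Col12a1 stay above 0 while Col14a1 and Col6a1 in old dWAT stay below 0 under each scaling.

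The nearest patterns over the 4 libraries were sought among genes whose mean FPKM reached 1, by the distance between centred log2(FPKM + 1) values. Nearest to Col6a1 were Fbn1 (0.122), the gene of the microfibril protein fibrillin, 1500015O10Rik (0.141) and the type V collagen gene Col5a2 (0.183). Nearest to Col6a2 were the type V collagen gene Col5a1 (0.0407), Gm20498 (0.114) and Cd248 (0.181), a surface protein of stromal cells. Fbn1 stood at 7.09 FPKM in OTD and 5.74 in YTD, against 2.02 in OAD and 3.68 in YAD. For Col14a1 no gene came within 0.2, and the nearest was Postn (0.335), which encodes the matrix protein periostin. 1500015O10Rik and Cd83 followed it. For Col6a3 the nearest was 1110002L01Rik (0.189), then Parp1 and Pigv. Around Col18a1, by contrast, 370 genes lay within 0.2, around Col12a1 284, around Col6a6 88, around Col16a1 57 and around Col15a1 27. The 3 nearest were Gtf2ird2, Irf3 and Ugt1a6a for Col18a1, Casc3, Sfswap and Arfip2 for Col12a1, and L3hypdh, Ap3m2 and Gnaq for Col6a6. They were B4galnt4, Ddx39 and Slc25a13 for Col16a1, and Sec22c, Bace1 and Gm49405 for Col15a1. With 4 libraries many genes share a pattern of few steps, so this is a description only. On the log2(FPKM + 1) scale low values are also compressed, so near genes can differ in fold. Col6a6 stood at 1.25 in OTD and 0.179 in OAD, and L3hypdh at 6.89 and 3.20. Col16a1 stood at 3.20 in OTD and 20.5 in OAD, and B4galnt4 at 0.111 and 4.58.

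The fibrils that these collagens attach to were described with 12 partner genes. Counts of higher and lower genes in this and the following lists are for FPKM as deposited. In TPM the median of all genes reaching an FPKM of 1 moved from -0.00065 to -0.21 for the change with age in anagen, so the sign of a small change there depends on the scaling. OAD was lower than YAD for 10 and higher for 2, with 3 past the threshold and a median of -0.74, against a median of 0 over all genes. The 3, of which the study had picked Col1a1 and Col3a1 from the same libraries, were Col1a1 (-1.90), Col1a2 (-1.80) and Col3a1 (-1.48), the main fibril chains. Col1a1 stood at 94.5 FPKM in OTD and 133 in YTD, against 16.5 in OAD and 64.4 in YAD. Col6a1 stood to Col1a1 at 0.356 in OTD and 0.216 in YTD, against 0.670 in OAD and 0.309 in YAD, and Col16a1 to Col1a1 at 0.0339, 0.0290, 1.24 and 0.318. Col14a1 to Col1a1 stayed in a narrower range, at 0.121, 0.0684, 0.136 and 0.111 in the same order. Dcn, which encodes decorin, was 599 in OTD and 230 in YTD, against 85.8 in OAD and 107 in YAD. In telogen 8 of the 12 were higher in OTD, 2 of them past the threshold (Dcn and Lum), with a median of 0.26.

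Receptors and enzymes were on balance slightly lower in OAD, with exceptions. Of 15 collagen and endostatin receptor genes, 13 were lower and 2 higher in OAD, with a median of -0.13 and none past the threshold. Antxr1, which encodes a receptor that binds type VI collagen, stood at 9.38 FPKM in OTD and 6.32 in YTD, against 3.40 in OAD and 4.25 in YAD. Antxr2, its relative, had 9.18, 5.92, 1.19 and 1.71 in the same order, and Cspg4, a proteoglycan that binds type VI collagen, had 2.63, 4.15, 5.84 and 6.47. As deposited, both anthrax toxin receptor genes were thus higher in telogen and Cspg4 in anagen, and these directions were not computed under the other scalings. In telogen 8 of the 15 were higher and 7 lower in OTD, with a median of 0.010. Of 18 genes of collagen biosynthesis, 15 were lower in OAD (median -0.090) and none past the threshold. The lowest was Pcolce, which encodes an enhancer of procollagen cleavage, at 14.8 FPKM in OAD against 26.5 in YAD. Its log2 change of -0.80 was close to that of Col6a1. The highest was Plod2, a lysyl hydroxylase gene, at 0.46. Of the same 18 genes, 11 were lower in OTD with a median of -0.032 and 1 past it. Of 10 related collagens, such as Col6a4, Col6a5 and the type IX chains, 9 were matched. In anagen 7 were lower and 2 higher, with a median of -0.065, and in telogen 4 were lower and 4 higher, with a median of 0.042. No related collagen reached an FPKM of 1 in anagen, and in telogen only Col28a1 did, at 2.13 in OTD and 1.32 in YTD.

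dWAT holds several cell types, and in such bulk samples fewer cells of a type and less RNA per cell cannot be told apart. All 12 fibroblast and fat progenitor markers were higher in OTD than YTD (median 0.39), and 9 were lower in OAD than YAD (median -0.29). Their summed FPKM was 1247 in OTD and 993 in YTD, against 209 in OAD and 237 in YAD, and none was at 0. All 12 adipocyte markers were higher in OAD than YAD (median 0.31), and in telogen 6 were higher and 6 lower (median -0.0099). All 12 endothelial markers were higher in old dWAT in both phases as deposited, with medians of 0.58 in telogen and 0.30 in anagen. The smallest of these changes in anagen was 0.058. Col15a1 was lower in old dWAT in both phases, and its relation to these markers was not tested. Adipocyte markers summed to 8267 in OTD and 7027 in YTD, against 2884 in OAD and 2036 in YAD, so the label of adipose tissue has its markers in each library. Of 8 mural markers, 6 were higher in OTD and 5 in OAD, with medians of 0.42 and 0.094.

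Markers of neighbouring tissue also differed between the groups. OTD was below YTD for each of the 15 skeletal muscle markers (median -0.72), and OAD was above YAD for 12 of them (median 0.28). The 13 matched hair shaft and inner sheath keratins summed to 231 in OTD and 427 in YTD, against 23787 in OAD and 20442 in YAD. Their medians with age were -0.85 in telogen and 0.33 in anagen. Of 10 matched epidermal markers, 8 were lower in OTD and 8 higher in OAD, with medians of -0.29 and 0.21, and 1 was at 0 in YTD. All 11 markers of dermal papilla and sheath were higher in anagen at either age, with sums of 7.99 in OTD and 9.22 in YTD, against 122 in OAD and 142 in YAD, and age medians of -0.13 and -0.15. The 10 melanocyte markers had age medians of -0.098 in telogen and -0.76 in anagen, the 11 macrophage markers 0.38 and -0.26, and the 7 Schwann cell markers 0.46 and -0.044. How much of any difference in the collagen genes goes with these tissues was not tested.

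**Figure D5:**
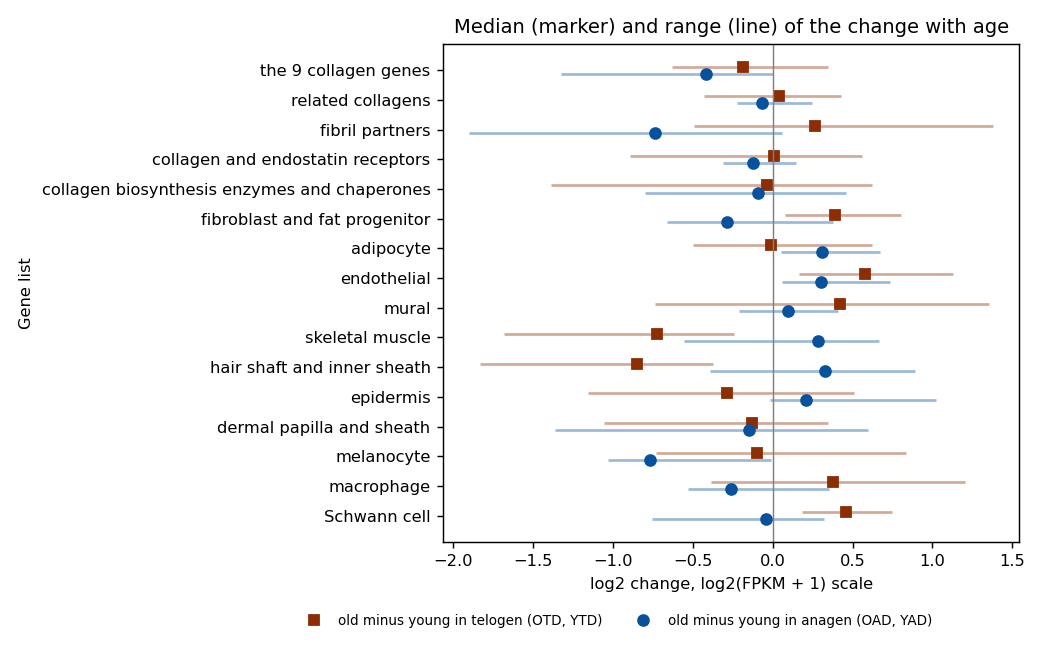
Log2 change of old minus young on the log2(FPKM + 1) scale for the 9 collagen genes and 15 gene lists, with the median as a marker and the lowest to highest gene as a line, brown squares for telogen and blue circles for anagen. In anagen the median is -0.42 for the 9 collagen genes and -0.74 for the fibril partners, and in telogen the fibroblast list lies wholly above 0.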

How the data were processed

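dWAT of old and young C57BL/6 mice in telogen and depilation-induced anagen was sequenced as 1 library per group. Each library came as FPKM values of 22913 genes, which the authors deposited with positions on GRCm38. The submitters' processing notes name bcl2fastq and TopHat2. The counting tool, the annotation release and any scaling between libraries are not given in the sources used here. Of the identifiers, 21750 were matched to a symbol, and of 178 companion and marker genes 175 were matched.

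FPKM were used as deposited, with a pseudocount of 1 on the log2 scale. With 1 library per group no test was run. Depth was estimated from features of 2000 to 4000 bases within a range fixed in advance, and is rough. The scripts were tested on simulated data. The members and lists were chosen with earlier results of these data known. All 9 members are described, with every gene of a list counted. In each companion list, genes that bind or assemble with a member and the extremes of the change with age in anagen could be named, and the 3 nearest patterns to each member were given. Lum, Col3a1 and Slc19a1 fall outside this rule and were chosen after their values were seen. Alternatives were a pseudocount of 0.1, an FPKM minimum of 1, median-of-ratios scaling, 3 forms of TPM and a 1.5-fold threshold. Positions and overlaps are from GENCODE M21, promoter sequences from RefSeq GRCm38.p6. Protein sequences, planned as a description, were not used here. Python 3.11.15, numpy 2.4.6, pandas 2.3.3, scipy 1.17.1 and matplotlib 3.10.9 were used.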

Additional observations from a re-analysis of the deposited data

Results flagged for a closer look

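For 5 genes the change with age had opposite signs in the 2 phases, and this difference was not tested, as each phase has 1 library per age. The anagen change minus the telogen change was -1.62 for Col14a1, -1.01 for Col6a1, -0.63 for Col6a6, -0.24 for Col18a1 and 0.21 for Col16a1. For Col16a1 the anagen change itself was only 0.0018, and for Col18a1 it was -0.071, so their signs carry little.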

How the results depend on the processing

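With 1 library per group no replicate could be left out, and single values have no known spread. No paired analysis was possible either, as each group has only 1 library and no test was run. The median log2 change of the 9 genes with age in anagen, -0.42 as reported, was -0.84 with a pseudocount of 0.1, -0.60 when an FPKM of 1 was required, -0.64 in TPM, -0.58 in TPM without mitochondrially encoded and skeletal muscle genes, and -0.63 in TPM without hair keratin, keratin-associated and melanocyte genes. The count past the threshold there, 1 as reported, was 4, 3 and 4 under these 3 TPM scalings and 4 at a 1.5-fold threshold, while the share of all genes past it, 1.18% as reported, was 1.58%, 1.82%, 1.76% and 4.97%. In telogen the median was -0.041 in TPM without mitochondrially encoded and muscle genes, and the count was 1 at 1.5-fold, which 16% of all genes passed. From telogen to anagen in young dWAT the median, -0.30 as reported, reversed to 0.44 in TPM and 0.63 in TPM without hair and melanocyte genes, and the count, 2 as reported, was 4 in the latter and 4 at 1.5-fold. The share of all genes past the threshold, 32.7% as reported, was 44.5% and 52.3% there. In old dWAT the median, -0.39, reversed to 0.19 and 0.41 under the same scalings and was -0.71 in TPM without mitochondrially encoded and muscle genes. The count there, 5 as reported, was 4, 5 and 4 under the 3 TPM scalings, where 36.3%, 37.2% and 40.2% of all genes passed, against 31.7% as reported, and it was 6 with a pseudocount of 0.1 (46.9%) and 7 at 1.5-fold (50.9%). The median difference of the age changes between the phases, -0.42 as reported, was -0.66, -0.72 and -0.65 under the 3 TPM scalings. These TPM shifts follow the shift of all genes, whose median from telogen to anagen in young dWAT went from 0.030 to 0.76 in TPM. Of 214 single-gene values under these alternatives 17 changed sign, none of them past the threshold as reported.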
